A study of Mus musculus with 14 samples.

Results

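Genes of the carnitine shuttle and of carnitine synthesis were followed in mouse hepatocellular carcinoma cells lacking ATP-citrate lyase (ACLY), acyl-CoA synthetase short-chain family member 2 (ACSS2) or both enzymes. The list was set by symbol and not by any measured value. It held 10 genes, namely Crat, Crot, Cpt1a, Cpt1b, Cpt1c, Cpt2, Slc25a20, Slc22a5, Tmlhe and Aldh9a1. Of these, 9 were among the 24972 gene symbols with values, and Tmlhe was not analysed here. All 9 had a mean of at least 10 normalized counts over all libraries, the limit for testing.

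Poly(A) RNA was sequenced from cells grown for 24 hours in DMEM with 10% calf serum, giving 3 libraries each of ACSS2 KO and DKO1 and 4 each of WT and ACLY KO. The parental line came from a liver tumor that diethylnitrosamine had induced in an Acly f/f mouse. WT cells kept the floxed Acly allele, and ACLY KO cells had lost it after adenoviral Cre and were grown from a single-cell clonal population. Both carried an empty LentiCRISPR vector and were used as bulk populations. ACSS2 KO cells received a guide against the first exon of Acss2 in the WT line, and DKO1 cells received such a guide in the ACLY KO line. Each was grown from 1 single-cell clone, so that clone and genotype cannot be told apart. According to the methods the RNA-seq experiment was not repeated independently, so the p-values measure the spread between these libraries, which may be technical.

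Carnitine carries acyl groups across membranes that coenzyme A thioesters do not cross. In the liver, CPT1 on the outer mitochondrial membrane joins a long-chain acyl group to carnitine, the SLC25A20 translocase exchanges the acylcarnitine for free carnitine, and CPT2 on the inner membrane hands the acyl group back to coenzyme A for beta-oxidation. CRAT does the same reaction with acetyl and other short groups, and CROT with the medium-chain products of peroxisomal oxidation. Cells take up carnitine through SLC22A5 or make it from trimethyllysine in a pathway that starts with TMLHE and uses ALDH9A1. ACLY and ACSS2 both make acetyl-CoA in the cytosol and nucleus, from citrate and from acetate.

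The labels were checked with the targeted genes. Acly had 6050 ± 423 normalized counts (n = 4, SD) in WT and 5684 ± 124 (n = 3, SD) in ACSS2 KO, and 1001 ± 56.1 (n = 4, SD) in ACLY KO and 946 ± 12.9 (n = 3, SD) in DKO1. Acss2 had 132 ± 4.88 (n = 3, SD) in ACSS2 KO against 237 ± 11.5 (n = 4, SD) in WT, and 535 ± 69.1 (n = 3, SD) in DKO1 against 718 ± 56.7 (n = 4, SD) in ACLY KO. A guide that makes small deletions need not remove the transcript. Totals ran from 23512975 to 26901953 normalized counts per library. Deviations from the genotype mean followed transcript length in several libraries, with Spearman's rho over genes of -0.708 in DKO1 replicate 4 and -0.616 in WT replicate 2, against 0.671 and 0.62 in the other DKO1 libraries and 0.0494 to 0.549 in the other WT libraries. ACLY KO replicate 4 (-0.598) and ACSS2 KO replicate 1 (-0.547) also had negative values. Calls of the carnitine genes that changed when 1 of the 14 libraries was left out are given with the value without it. List counts or medians printed below that moved by over 1.5 times without DKO1 replicate 4 are given without it too. The 9 hepatocyte markers summed to 48144 to 65076 normalized counts in WT libraries, 41056 to 44028 in ACSS2 KO libraries, 34763 to 37924 in those of ACLY KO and 26339 to 45295 in those of DKO1, nearly all of it from the keratins Krt8 and Krt18. On average Alb was between 11.3 and 134, Ttr between 1.78 and 31.7 and Gpc3 between 4.98 and 8.74, and Apoa1 was listed at 0 in ACLY KO and at or below 0.98 elsewhere. Hnf4a had a mean of 172 in WT and 22.4 to 39.8 in the knockouts. Afp averaged 127 in ACLY KO and 209.7 in DKO1, against 37.0 in WT and 34.3 in ACSS2 KO. Apob averaged 282 in DKO1 and 30.1 to 112 in the other genotypes. The summed fibroblast markers were 618 to 729 in WT, 2933 to 3297 in ACLY KO, 1431 to 1487 in ACSS2 KO and 1225 to 1514 in DKO1. In ACSS2 KO Dcn averaged 820 against 154 in WT, and Col3a1 averaged 68.4 against 80.6. The 3 endothelial markers summed to 77.1 to 90.6 in ACLY KO and 40.2 to 51.2 in DKO1, against 17.5 to 27.1 in WT and 10.5 to 18.3 in ACSS2 KO. Pecam1 averaged 61.7 in ACLY KO and 37.7 in DKO1 against 7.51 in WT, and Cdh5 18.9 and 6.63 against 1.54. Kdr went the other way, at 2.21 and 2.05 against 12.9. The 3 leukocyte markers stayed at or below 130.05 in any library. The part of the marker differences in the results below was not tested.

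Per kilobase of transcript, Cpt1a, the liver form of CPT1, was the most abundant of the 9 genes in WT at 613 ± 80.8 normalized counts (n = 4, SD). Crot followed at 482 ± 32.9 and Aldh9a1 at 395 ± 7.78. Slc25a20 and Crat came next, and at 288 ± 18.9 and 270 ± 24.9 these neighbors did not differ beyond their spread. Cpt2 was at 195 ± 7.50 per kilobase, Slc22a5 at 98.0 ± 8.53, Cpt1c at 24.2 ± 3.13 and Cpt1b at 16.1 ± 2.89. In DKO1 the order was different. Crot led with 638 ± 50.05 (n = 3, SD), and Aldh9a1 (394 ± 20.2), Crat (366 ± 64.7), Cpt1a (355 ± 84.9), Cpt2 (336 ± 3.42) and Slc25a20 (333 ± 32.5) lay close together, each within the spread of the next.

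The sequences before the transcription start of 3 members are shown because these genes stood for 3 different patterns. Cpt1c had the largest differences of the 9 genes, Cpt2 rose in all 3 knockout genotypes, and Slc22a5 held the single motif match found. The sequences are the 250 bases before the start that RefSeq gives on GRCm38.p6, written 5′ to 3′ on the gene's strand, which is the minus strand for all 3. CG dinucleotides are in capitals for Cpt1c (chr7:44974852-44975101) and Cpt2 (chr4:107923590-107923839), and the motif match is in capitals for Slc22a5 (chr11:53891704-53891953).
Cpt1c: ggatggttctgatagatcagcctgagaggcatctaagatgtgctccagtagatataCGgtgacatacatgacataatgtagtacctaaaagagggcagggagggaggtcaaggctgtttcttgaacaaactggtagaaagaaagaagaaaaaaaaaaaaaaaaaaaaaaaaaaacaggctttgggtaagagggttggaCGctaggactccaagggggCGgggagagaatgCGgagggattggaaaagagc
Cpt2: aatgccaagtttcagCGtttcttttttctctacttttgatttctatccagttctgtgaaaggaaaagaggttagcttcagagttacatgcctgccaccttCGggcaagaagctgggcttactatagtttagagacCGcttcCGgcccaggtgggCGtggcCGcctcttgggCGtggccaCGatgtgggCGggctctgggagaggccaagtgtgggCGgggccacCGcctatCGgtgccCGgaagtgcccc
Slc22a5: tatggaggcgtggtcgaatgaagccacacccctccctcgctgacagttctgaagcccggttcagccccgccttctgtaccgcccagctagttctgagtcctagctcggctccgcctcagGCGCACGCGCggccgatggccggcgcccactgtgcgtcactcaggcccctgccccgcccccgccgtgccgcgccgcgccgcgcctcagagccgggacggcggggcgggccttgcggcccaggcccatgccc

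The Cpt1c sequence had 4 CG dinucleotides and 44% G or C, the fewest CG dinucleotides of the 7 members with a sequence. Cpt2 had 13 and Slc22a5 had 30, and the median over all 32851 RefSeq promoter windows was 6. Crat and Cpt1b were not matched in this table. In windows of 300 bases that include the start, both strands were searched for the estrogen-related receptor element TCAAGGTCA, the PPAR element (AGGTCA, any base, then AGGTCA again) and its looser form (AGGNCA, any base, then AGGNCA again), the E-box CACGTG and the NRF1 element (GCGC, any base, then TGCGC). Any overlap with another motif was allowed. The Slc22a5 match to the NRF1 element, GCGCACGCGC, starts 131 bases before the start and was found on the strand opposite to the gene. The same search matched 4.6% of all windows for NRF1, 7.15% for the E-box, 0.423% for the estrogen-related receptor element, 0.0396% for the PPAR element and 0.381% for its looser form. A match is a description of letters in a window and not evidence of binding.

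The carnitine genes moved in both directions in ACLY KO cells. In these bulk cultures, fewer cells of a kind and less RNA per cell cannot be told apart. In ACLY KO against WT, Cpt2, Crot, Slc25a20 and Aldh9a1 rose and Cpt1a and Cpt1c fell, while Crat, Cpt1b and Slc22a5 did not pass the test (limma with Benjamini-Hochberg adjusted p under 0.05 over 12693 genes). These 6 of 9 compare with 48.5% of all genes tested that were called in the same comparison, 23.8% higher and 24.7% lower. In ACSS2 KO against WT, 4 members rose and 1 fell, beside 26.0% of all genes (15.0% higher, 11% lower). In DKO1 against WT, 4 rose and 2 fell, beside 56.0% (27.9% higher, 28.1% lower). The 3 comparisons share the WT libraries. The median log2 difference over the 9 members was 0.13, 0.16 and 0.15 in turn, beside -0.0065, 0.00093 and 0.0037 over all genes tested.

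**Figure D1:**
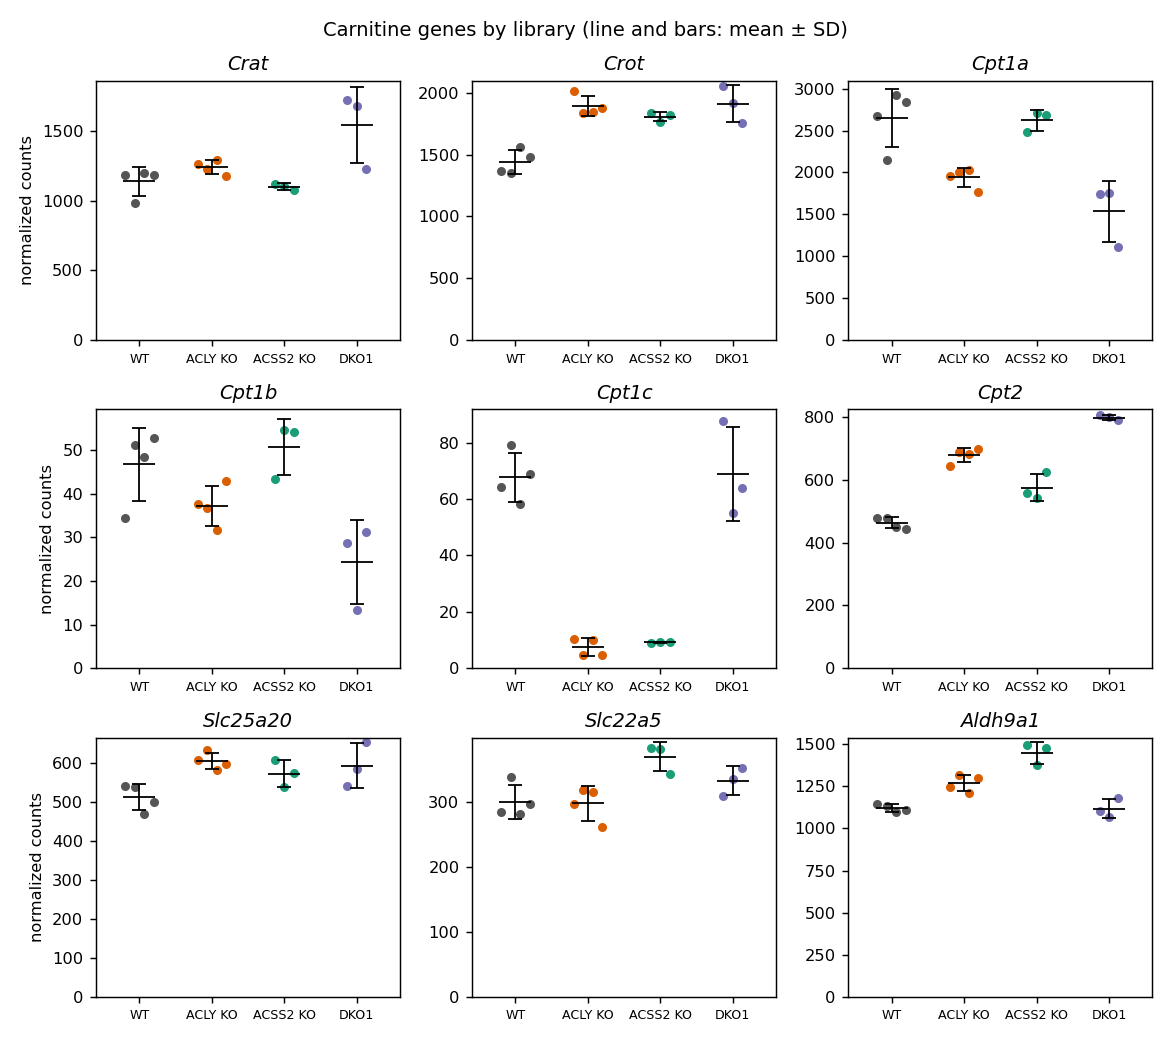
Normalized counts of the 9 measured carnitine genes in each of the 14 libraries, by genotype, on linear axes that start at 0, with the mean and SD of each genotype in black. Cpt2 did not overlap between any 2 genotypes, Cpt1a was lower in the 2 ACLY-deficient genotypes, and Cpt1c was at 10.4 or less in every ACLY KO and ACSS2 KO library.

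Crat, carnitine O-acetyltransferase, is the enzyme that interconverts acetyl-CoA and acetylcarnitine. Its values in WT replicates 1 to 4 were 1188, 982, 1200.0 and 1188 normalized counts, and those in ACLY KO were 1263, 1232, 1294 and 1179. ACSS2 KO replicates 1, 2 and 4 had 1123, 1109 and 1077, and DKO1 replicates 1, 3 and 4 had 1724, 1684 and 1232. A pair of DKO1 libraries thus stood above every other library, and the third lay among the ACLY KO values.

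Crat was 1547 ± 273 (n = 3, SD) in DKO1, 1140 ± 105 (n = 4, SD) in WT and 1103 ± 23.4 (n = 3, SD) in ACSS2 KO. It rose by a log2 difference of 0.43 ± 0.11 (SE) against WT (limma adjusted p = 0.0047) and of 0.47 ± 0.12 against ACSS2 KO (adjusted p = 0.0042), and both calls held under all 23 alternatives, with log2 differences of 0.34 to 0.58 and 0.38 to 0.63. Against ACLY KO, at 1242 ± 49.1 (n = 4, SD), the log2 difference was 0.30 with a 95% interval of 0.064 to 0.54 and did not pass (limma adjusted p = 0.057).

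That last comparison depended on DKO1 replicate 4. Without it, the log2 difference of Crat between DKO1 and ACLY KO was 0.46 (limma adjusted p = 0.00066), and with the transcript length correction it was 0.40 (adjusted p = 0.00012). It also passed without WT replicate 2, at 0.30 (adjusted p = 0.038), and it lay between 0.21 and 0.46 over the 23 alternatives. The difference of the effects of ACSS2 loss in ACLY KO and in WT cells, an interaction term, was 0.34 for Crat (adjusted p = 0.12) and 0.50 without DKO1 replicate 4 (adjusted p = 0.0024). Crat lies on chromosome 2 of GRCm38, the build of all positions here, from 30400471 to 30415813 on the minus strand and overlaps the annotated Dolpp1 on the other strand. Dolpp1 had 341 ± 23.4 (n = 4, SD) in WT, 174 ± 2.47 (n = 4, SD) in ACLY KO, 334 ± 15.6 (n = 3, SD) in ACSS2 KO and 224 ± 27.8 (n = 3, SD) in DKO1. The kit keeps the strand, but whether counting used it was not given in the sources used here, so reads in the shared stretch may be split between the pair.

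**Figure D2:**
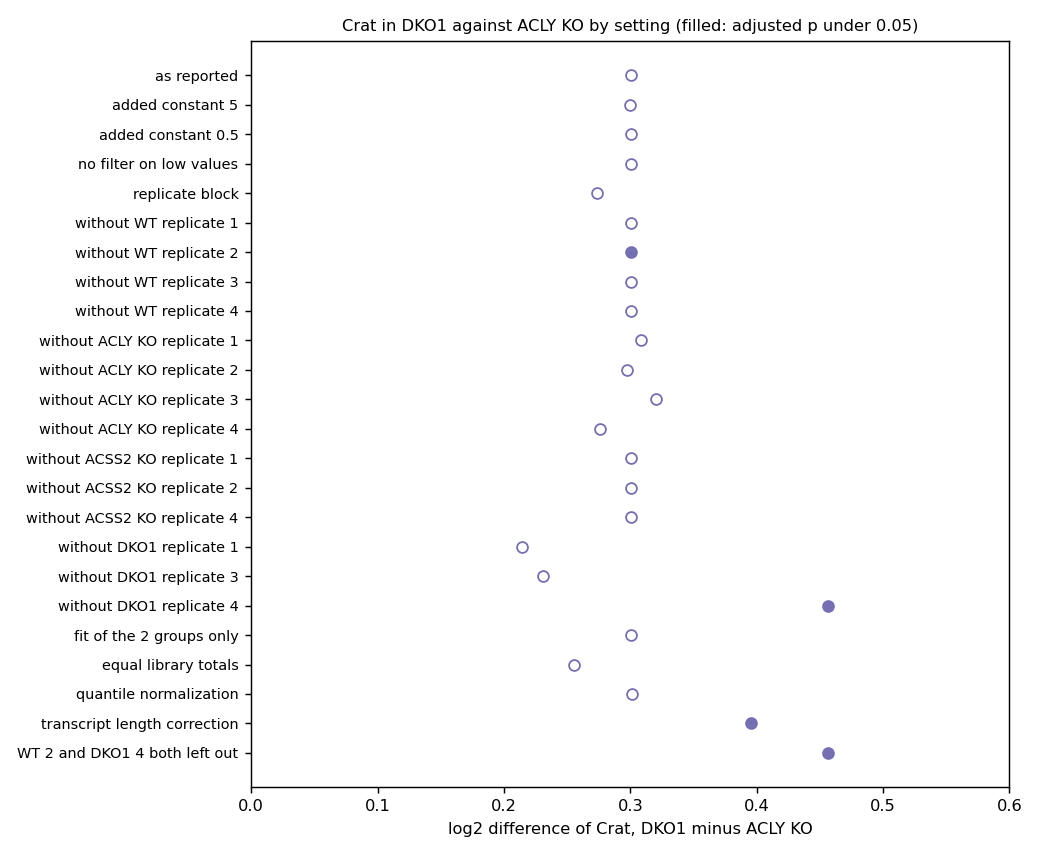
Log2 difference of Crat between DKO1 and ACLY KO on the x axis, as reported and under each of 23 alternatives on the y axis, with filled points where the limma adjusted p was under 0.05. All values lie between 0.21 and 0.46, and the 4 filled points belong to the length correction and to fits without WT replicate 2, without DKO1 replicate 4 or without both.

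Crot, carnitine O-octanoyltransferase of peroxisomes, on chromosome 5 from 8966033 to 8997324, rose in all 3 knockout genotypes. WT replicates 1 to 4 had 1372, 1355, 1564 and 1484 normalized counts, and ACLY KO had 2018, 1837, 1844 and 1881. ACSS2 KO had 1843, 1767 and 1821, and DKO1 had 2060 (replicate 1), 1916 (replicate 3) and 1759.9 (replicate 4). No WT library reached the lowest knockout library. The log2 differences from WT were 0.39 ± 0.066 (SE) in ACLY KO (limma adjusted p = 0.00024), 0.40 ± 0.071 in DKO1 (adjusted p = 0.00032) and 0.33 ± 0.071 in ACSS2 KO (adjusted p = 0.0038), and all 3 passed under all 23 alternatives. DKO1 differed from ACLY KO by 0.011 with a 95% interval of -0.14 to 0.16. The double knockout was thus lower than the sum of the single effects, with an interaction of -0.32 ± 0.10 (SE, adjusted p = 0.032). That call was lost in 8 of the 14 fits that left out 1 library, namely without WT replicate 1 or 2 (-0.29 in each), ACLY KO replicate 1 (-0.29) or 4 (-0.32), ACSS2 KO replicate 1 (-0.30), 2 (-0.34) or 4 (-0.31), or DKO1 replicate 3 (-0.32), with adjusted p of 0.052 to 0.073.

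Cpt1a and Cpt2, the enzymes at either end of the mitochondrial shuttle, moved apart. Cpt1a lies on chromosome 19 from 3322334 to 3385733. Cpt1a had 2675, 2148, 2923 and 2845 normalized counts in WT replicates 1 to 4 and 2477, 2709 and 2681 in ACSS2 KO replicates 1, 2 and 4. It had 1959, 2004, 2027 and 1769 in ACLY KO replicates 1 to 4, and 1743, 1749 and 1111 in DKO1 replicates 1, 3 and 4. Every ACLY-deficient library was below every ACLY-proficient one. Cpt1a fell by 0.44 ± 0.14 (SE) on the log2 scale in ACLY KO against WT (limma adjusted p = 0.017) and by 0.81 ± 0.15 in DKO1 against WT (adjusted p = 0.00047), the last a difference of -0.59 without DKO1 replicate 4 (adjusted p = 0.00028). The ACLY KO call was lost without WT replicate 3 (-0.39, adjusted p = 0.053), without ACLY KO replicate 4 (-0.40, adjusted p = 0.051) and with equal library totals (-0.33, adjusted p = 0.12).

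In ACSS2 KO the log2 difference of Cpt1a from WT was -0.0050 with a 95% interval of -0.33 to 0.32. DKO1 was 0.80 ± 0.16 (SE) below ACSS2 KO on the log2 scale, a difference of -0.80 (limma adjusted p = 0.00086). Between DKO1 and ACLY KO it was -0.37 (95% interval -0.69 to -0.045, adjusted p = 0.085), and it passed without DKO1 replicate 1 (-0.47, adjusted p = 0.042) or 3 (-0.48, adjusted p = 0.048) and with the length correction (-0.27, adjusted p = 0.026), whereas without DKO1 replicate 4 it was -0.15 (adjusted p = 0.31).

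Cpt2 lies on chromosome 4 from 107903981 to 107923610. Its values were 478, 478, 451 and 444 normalized counts in WT, 559, 541 and 624 in ACSS2 KO, 645, 688, 682 and 697 in ACLY KO and 804, 798 and 788 in DKO1, in order of replicate number. The 4 genotypes did not overlap. The log2 difference from WT was 0.31 ± 0.064 (SE) in ACSS2 KO (limma adjusted p = 0.0028) and 0.55 ± 0.059 in ACLY KO (adjusted p = 5.0e-06), and both passed under all 23 alternatives, as did the 0.78 ± 0.064 in DKO1 (adjusted p = 3.8e-07). DKO1 stood 0.23 ± 0.064 above ACLY KO (adjusted p = 0.016) and 0.47 ± 0.068 above ACSS2 KO (adjusted p = 6.5e-05). The step from ACLY KO to DKO1 passed in all 14 fits that left out 1 library but not with equal library totals (0.19, adjusted p = 0.082) or when those groups alone were fitted (0.23, adjusted p = 0.057). The interaction was -0.077 with a 95% interval of -0.27 to 0.12.

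The ratio of Cpt2 to Cpt1a within a library does not depend on how libraries are scaled. On the log2 scale it was -2.51 ± 0.25 (n = 4, SD) in WT, -2.19 ± 0.12 (n = 3, SD) in ACSS2 KO, -1.51 ± 0.12 (n = 4, SD) in ACLY KO and -0.91 ± 0.36 (n = 3, SD) in DKO1. The 7 ACLY-deficient libraries, at -1.602 or above, did not overlap with the 7 ACLY-proficient libraries, at -2.103 or below. Their means differed by 1.11, and by 0.99 without DKO1 replicate 4. This is a description with no test, since it follows from the Cpt1a and Cpt2 values above and libraries of 1 clone are not independent. DKO1 was 0.60 above ACLY KO (exact two-sided permutation test, p = 0.057, the smallest that 35 splits of 3 and 4 libraries can give, so this design cannot pass 0.05). This difference too follows from the values above, and its libraries are not independent, so no conclusion is drawn from the test. DKO1 replicate 4 had -0.495 and the other DKO1 libraries -1.115 and -1.13. The transcripts differ in length, with 4317 bases for Cpt1a and 2372 for Cpt2, and the part of the length trend in the ratio was not tested. Of the libraries with negative trends, DKO1 replicate 4, ACLY KO replicate 4 (-1.343) and WT replicate 2 (-2.166) had the highest ratio of their genotypes. ACSS2 KO replicate 1 (-2.145) did not. For the ratio of Crat to Cpt2 the difference between ACLY-deficient and ACLY-proficient libraries was -0.24, and the libraries overlapped.

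**Figure D3:**
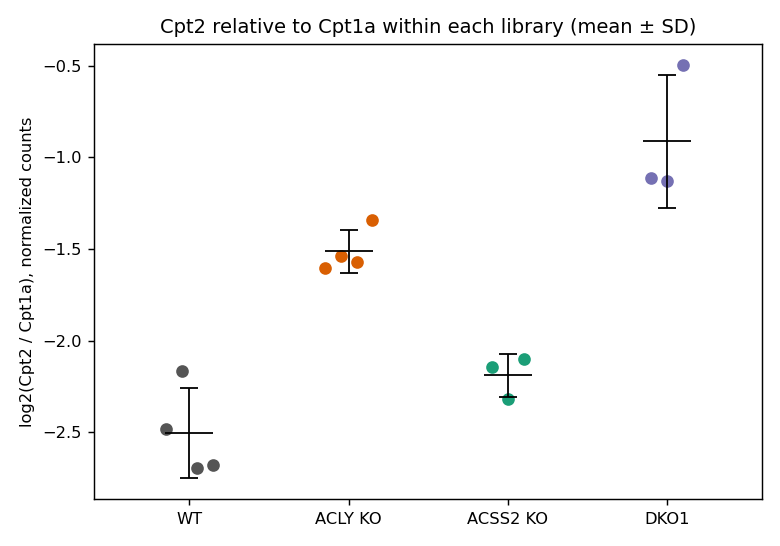
Log2 ratio of Cpt2 to Cpt1a normalized counts in each library on the y axis, by genotype on the x axis, with mean and SD in black. The ACLY KO and DKO1 libraries sit at -1.602 or above and the WT and ACSS2 KO libraries at -2.103 or below.

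Cpt1c, the CPT1 form best known from neurons, had the largest differences of the 9 genes. Its values were 64.4, 79.0, 58.2 and 68.8 normalized counts in WT replicates 1 to 4. They were 10.4, 4.72, 10.2 and 4.88 in ACLY KO and 8.97, 9.38 and 9.34 in ACSS2 KO. The means there, 7.55 and 9.23, were below the limit of 10, which Cpt1c passed only through WT (67.6) and DKO1 (68.9). DKO1 replicates 1, 3 and 4 had 87.5, 55.2 and 63.9. Cpt1c was therefore low in both single knockouts and near the WT values in the double knockout, where 1 library lay below the WT range, 1 within it and 1 above it, although DKO1 was derived from ACLY KO cells.

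On the log2(value + 1) scale, which understates the change of low genes, Cpt1c fell by 3.08 ± 0.25 (SE) in ACLY KO (limma adjusted p = 3.5e-07) and by 2.74 ± 0.27 in ACSS2 KO (adjusted p = 8.9e-06). DKO1 differed from WT by 0.0083 with a 95% interval of -0.57 to 0.59 and stood 3.08 ± 0.27 above ACLY KO (adjusted p = 3.7e-06). The interaction was 5.82 ± 0.38 (SE, adjusted p = 2.9e-07). Of the neuron markers, Snap25 had a mean of at most 0.37 normalized counts in any genotype, Rbfox3 at most 3.93 and Syt1 8.47 to 19.0, while Map2 was highest in ACLY KO at 2716 and had 1729.5 in DKO1, 1611 in ACSS2 KO and 1404 in WT. Per kilobase, Cpt1c made up 3.79 ± 0.98% of the summed CPT1 level in WT (n = 4, SD), 0.58 ± 0.23% in ACLY KO (n = 4, SD), 0.53 ± 0.014% in ACSS2 KO (n = 3, SD) and 6.50 ± 1.70% in DKO1 (n = 3, SD). Cpt1a made up the most of it in every library, 88.45% at the lowest.

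The genes around Cpt1c, on chromosome 7 from 44959372 to 44974851, did not move with it. Within 200 kb of its start, 24 other genes were tested. Their log2 differences ran from -0.54 to 1.27 in ACLY KO against WT, with 4 higher and 2 lower, and from -0.22 to 0.86 in ACSS2 KO against WT, with 4 higher and 0 lower by limma. Of all genes tested, 48.5% and 26.0% were called in these comparisons. None of the neighbors approached the fall of Cpt1c in either comparison. The nearest, Prmt1, an arginine methyltransferase gene with its start 11.7 kb away, differed by -0.16 (adjusted p = 0.32) and -0.22 (adjusted p = 0.26). From ACLY KO to DKO1 the neighbors ran from -1.70 (Fuz) to 0.67 (Pih1d1), with 1 higher and 4 lower, beside 27.9% of all genes called. The annotation also places 6530437J22Rik, on the other strand, over Cpt1c, and that gene was not analysed here.

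**Figure D4:**
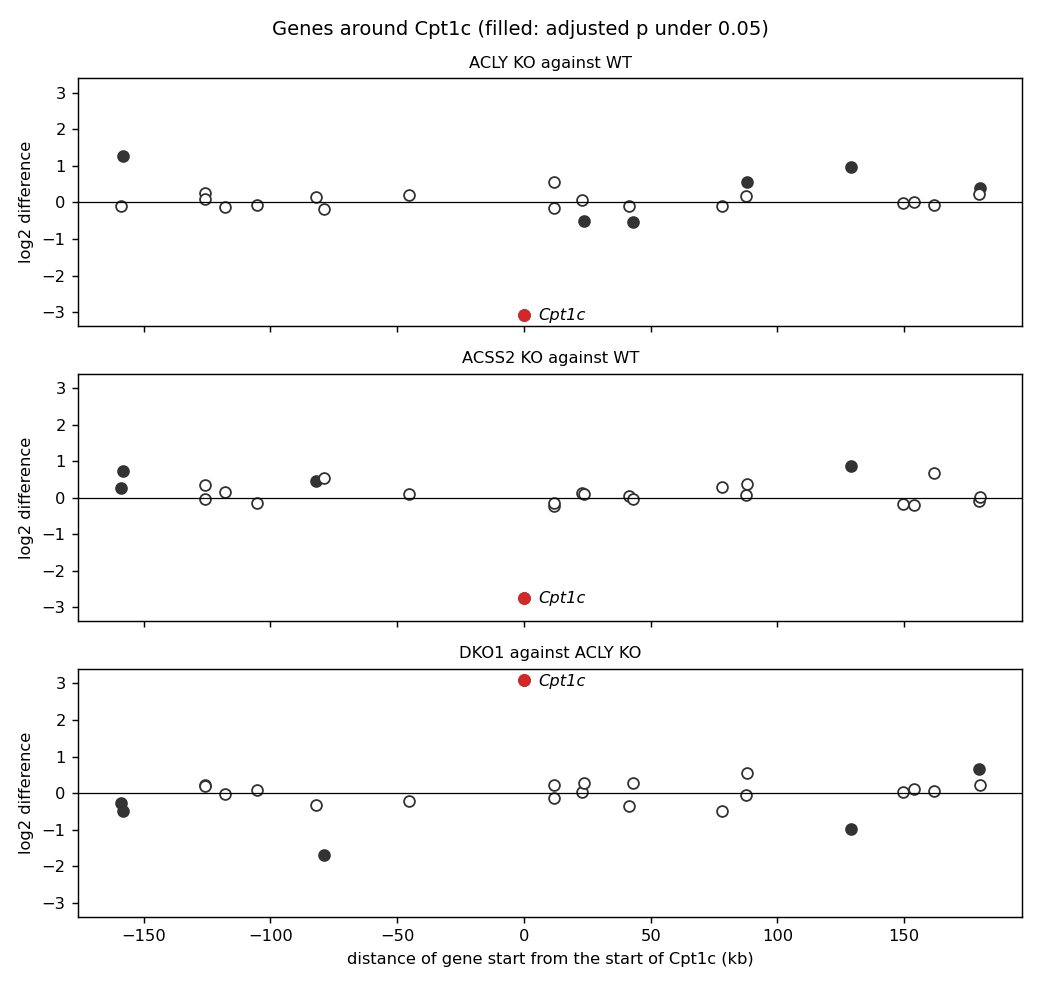
Log2 difference on the y axis against distance of the gene start from that of Cpt1c in kb along the chromosome on the x axis, for Cpt1c (red) and 24 tested neighbors, with filled points where the limma adjusted p was under 0.05. Cpt1c stood at -3.08 and -2.74 in the single knockouts and at 3.08 in DKO1 against ACLY KO, and its neighbors lay between -1.70 and 1.27.

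Cpt1b, the muscle form of CPT1, on chromosome 15 from 89416405 to 89425863, was low throughout, with 34.4 to 52.8 normalized counts in WT, 31.7 to 42.9 in ACLY KO, 43.2 to 54.5 in ACSS2 KO and 28.6, 13.4 and 31.1 in DKO1 replicates 1, 3 and 4. All DKO1 libraries were below all WT libraries. Cpt1b fell by 0.98 ± 0.25 (SE) on the log2 scale in DKO1 against WT (limma adjusted p = 0.0055) and by 1.10 ± 0.27 against ACSS2 KO (adjusted p = 0.0041). Without DKO1 replicate 3 these differences were -0.61 (adjusted p = 0.020) and -0.74 (adjusted p = 0.010). Against ACLY KO the difference was -0.67 (95% interval -1.22 to -0.12, adjusted p = 0.069). It passed without DKO1 replicate 1 (-0.82, adjusted p = 0.045) or 4 (-0.88, adjusted p = 0.022), and without replicate 3 it was -0.30 (adjusted p = 0.26). Of 4 muscle markers, Acta1 averaged 34.6 normalized counts in DKO1 and 15.1 to 17.7 in the other genotypes, Myh7 reached 2.38 in DKO1, and Ckm and Myh6 had means of at most 0.68. The 4 summed to 29.5 to 44.9 in DKO1 and to 7.96 to 23.8 in WT, and their part in the Cpt1b difference was not tested. Cpt1b shares its strand and part of its sequence with an annotated readthrough gene, Gm44502, so its counts are uncertain.

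Slc25a20, the carnitine-acylcarnitine translocase, on chromosome 9 from 108662088 to 108684641, changed little. It ranged from 470.2 to 540.0 normalized counts in WT, from 583 to 633 in ACLY KO, from 538 to 607 in ACSS2 KO and from 540.1 to 655 in DKO1. The WT and ACLY KO ranges did not overlap. It rose by a log2 difference of 0.24 ± 0.074 (SE) in ACLY KO against WT (limma adjusted p = 0.017), a call lost without WT replicate 3 (0.20, adjusted p = 0.056) or ACLY KO replicate 2 (0.22, adjusted p = 0.051). In DKO1 against WT it was 0.21 ± 0.080 (adjusted p = 0.041), and this call held under 8 of 23 alternatives. It was lost in 9 of the 14 fits that left out 1 library, with 0.13 (adjusted p = 0.14) without DKO1 replicate 4, 0.17 (adjusted p = 0.11) without WT replicate 3, 0.20 (adjusted p = 0.084) without WT replicate 4, 0.22 (adjusted p = 0.072) without DKO1 replicate 3, and 0.21 (adjusted p = 0.051 to 0.055) without any 1 of the ACLY KO replicates or ACSS2 KO replicate 4. With the length correction it was 0.063 (adjusted p = 0.41). DKO1 differed from ACLY KO by -0.032, with a 95% interval of -0.20 to 0.14.

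Slc22a5, the plasma membrane carnitine transporter, on chromosome 11 from 53864542 to 53891660, was 300.2 ± 26.1 normalized counts (n = 4, SD) in WT, 298 ± 26.5 (n = 4, SD) in ACLY KO, 370 ± 22.5 (n = 3, SD) in ACSS2 KO and 333 ± 22.3 (n = 3, SD) in DKO1. The values in ACSS2 KO replicates 1, 2 and 4, at 383, 382 and 344, were above all WT values. It rose by a log2 difference of 0.30 ± 0.094 (SE) in ACSS2 KO against WT (limma adjusted p = 0.030). This call was lost in 5 of the 14 fits that left out 1 library, without WT replicate 1 (0.28, adjusted p = 0.077), 3 (0.27, adjusted p = 0.078) or 4 (0.30, adjusted p = 0.062) or ACSS2 KO replicate 1 (0.27) or 2 (0.28), both with adjusted p = 0.11. Quantile normalization gave 0.17 (adjusted p = 0.25). In ACLY KO and DKO1 the log2 differences from WT were -0.012 (95% interval -0.20 to 0.18) and 0.15 (95% interval -0.053 to 0.35).

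Aldh9a1, the aldehyde dehydrogenase of carnitine synthesis, on chromosome 1 from 167349991 to 167368532, was raised in the single knockouts. It had 1146, 1131, 1096 and 1109.9 normalized counts in WT replicates 1 to 4, 1249, 1315, 1210.4 and 1297 in ACLY KO, and 1498, 1376 and 1475 in ACSS2 KO replicates 1, 2 and 4. DKO1 replicates 1, 3 and 4 had 1102, 1069.8 and 1181. The values of WT, ACLY KO and ACSS2 KO did not overlap, and DKO1 spanned the WT range. The log2 difference from WT was 0.18 ± 0.054 (SE) in ACLY KO (limma adjusted p = 0.015) and 0.37 ± 0.058 in ACSS2 KO (adjusted p = 0.00040), and both passed under all 23 alternatives. It was -0.0051 (95% interval -0.13 to 0.12) in DKO1.

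The interaction of ACLY and ACSS2 loss was -0.55 ± 0.082 (SE) for Aldh9a1 on the log2 scale (limma adjusted p = 0.00029). It was called for 3 of the 9 members, Cpt1c upward and Crot and Aldh9a1 downward, beside 27.1% of all genes tested (12.0% higher, 15.1% lower). Aldh9a1 was lower in DKO1 than in ACSS2 KO (-0.38 ± 0.062, adjusted p = 0.00021). It was also lower than in ACLY KO (-0.18 ± 0.058, adjusted p = 0.032), a call lost without ACLY KO replicate 1 (-0.19, adjusted p = 0.057), 2 (-0.16, adjusted p = 0.090) or 4 (-0.17, adjusted p = 0.077) and without DKO1 replicate 1 (-0.17, adjusted p = 0.068) or 3 (-0.15, adjusted p = 0.11). It was also lost with the replicate number as a block (-0.18, adjusted p = 0.063) and when those groups alone were fitted (-0.18, adjusted p = 0.14).

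In DKO1 against ACLY KO, 3 of the 9 members were called by limma, with Cpt1c and Cpt2 higher and Aldh9a1 lower, a share near the 27.9% of all genes tested that were called in that comparison (14.3% higher, 13.6% lower). Without DKO1 replicate 4 the count was 5, beside 31.5% of all genes. DKO1 against ACSS2 KO gave 3 higher (Crat, Cpt1c and Cpt2) and 3 lower (Cpt1a, Cpt1b and Aldh9a1), beside 53.7% of all genes (25.9% higher, 27.8% lower). ACLY KO against ACSS2 KO gave 1 higher (Cpt2) and 3 lower (Cpt1a, Slc22a5 and Aldh9a1), beside 48.3% (23.1% higher, 25.3% lower). The 3 lower calls were lost without 1 of the ACSS2 KO or ACLY KO libraries. For Cpt1a these were ACLY KO replicate 4 (-0.39), ACSS2 KO replicate 2 (-0.41) and ACSS2 KO replicate 4 (-0.42). For Slc22a5 they were ACSS2 KO replicates 1 and 2 (-0.29 in each), and for Aldh9a1 ACSS2 KO replicates 1 (-0.17) and 4 (-0.18). Crat, at 0.17 (adjusted p = 0.22), passed without DKO1 replicate 4 at the same difference (adjusted p = 0.045).

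With DKO1 set against the other 11 libraries as 1 class, Crat (0.39, limma adjusted p = 0.020) and Cpt2 (0.50, adjusted p = 0.032) were higher and Cpt1a (-0.65, adjusted p = 0.018) and Cpt1b (-0.90, adjusted p = 0.028) lower, beside 20.8% of all genes tested (10.8% higher, 9.92% lower). The 4 calls fell to 2 without DKO1 replicate 1 or 4 and to 1 without DKO1 replicate 3. All genes called fell too, from 2635 of 12693 to 2340 of 12686 without replicate 1. They were 1200 of 12667 without replicate 4 and 1533 of 12697 without replicate 3. The Cpt2 call was lost without DKO1 replicate 1 (0.49, adjusted p = 0.074), 3 (0.50, adjusted p = 0.085) or 4 (0.51, adjusted p = 0.090). Cpt1a was -0.43 (adjusted p = 0.13) without replicate 4, and Cpt1b was -0.53 (adjusted p = 0.17) without replicate 3. Crat was 0.31 (adjusted p = 0.084) without replicate 1, 0.32 (adjusted p = 0.094) without replicate 3 and 0.55 (adjusted p = 0.0035) without replicate 4.

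**Figure D5:**
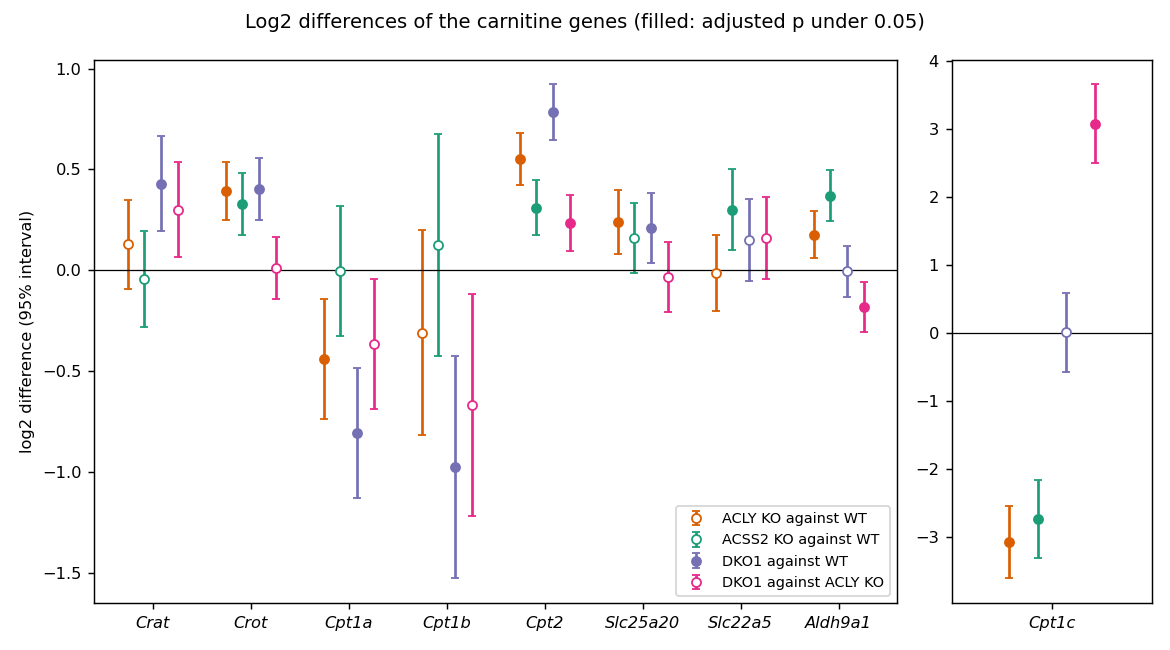
Log2 difference on the y axis with its 95% interval for each measured carnitine gene in 4 comparisons, with filled points where the limma adjusted p was under 0.05 and Cpt1c on an axis of its own. Cpt2 and Crot lie above 0 in all 3 knockouts against WT, Cpt1a lies below 0 in ACLY KO and DKO1, and Cpt1c is at -3.08 and -2.74 in the single knockouts but at 0.0083 in DKO1.

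Other genes of carnitine transport and synthesis were mostly too low to test. Of 9 such genes, 3 mitochondrial carriers passed the limit, and Slc22a16, a carnitine transporter best known from testis, was listed at 0 in all libraries. Bbox1, the last enzyme of carnitine synthesis, had at most 2.03 normalized counts in any library. Slc25a45 rose by a log2 difference of 1.38 in ACLY KO (limma adjusted p = 0.00014) and 1.19 in ACSS2 KO (adjusted p = 0.0021) against WT and was at -0.06 in DKO1 against WT (adjusted p = 0.84). Slc25a29, a carrier of basic amino acids, fell by 0.64 in ACLY KO (adjusted p = 0.0023) and by 0.60 in DKO1 (adjusted p = 0.0050) and rose by 1.07 in ACSS2 KO (adjusted p = 0.00023). Slc25a48 fell by 0.65 in ACLY KO (adjusted p = 0.013), by 0.72 in ACSS2 KO (adjusted p = 0.021) and by 0.59 in DKO1 (adjusted p = 0.028), the last a difference of -0.31 without DKO1 replicate 4 (adjusted p = 0.12). All 3 were thus called in each single knockout and 2 in DKO1, beside 48.5%, 26.0% and 56.0% of all genes. Without DKO1 replicate 4, 1 was called in DKO1, beside 61.3% of all genes.

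Malonyl-CoA, made by the acetyl-CoA carboxylases and removed by Mlycd, inhibits CPT1. Of 6 genes that make, use or control it, 2 rose in DKO1 against WT, 1 rose in each single knockout and none fell by limma. Of all genes tested, 48.5% (ACLY KO), 26.0% (ACSS2 KO) and 56.0% (double knockout) were called. The median log2 differences were 0.23, 0.077 and 0.22 in the same order, the last 0.37 without DKO1 replicate 4. In that fit 3 rose in DKO1 and 2 in ACLY KO, beside 61.3% and 61.6% of all genes. Acacb, the carboxylase of the outer mitochondrial membrane, rose by 1.59 in ACLY KO (adjusted p = 6.4e-06), from 17.9 to 55.8 normalized counts on average. Acaca, the far more abundant carboxylase gene, averaged 3264 in WT and 3768 in ACLY KO and was not called there (0.23, adjusted p = 0.52). In DKO1 against ACLY KO, Acacb (-0.82, adjusted p = 0.0063) and Prkaa1, a catalytic subunit of AMPK (-0.49, adjusted p = 0.0065), were lower and Mlycd, malonyl-CoA decarboxylase (0.79, adjusted p = 0.012), was higher. Prkaa2, the other catalytic subunit, was at -0.34 there (adjusted p = 0.31) and at 0.0065 without DKO1 replicate 4, and it rose by 1.17 in ACSS2 KO against WT (adjusted p = 0.0027). The 3 of 6 calls in DKO1 against ACLY KO stand beside 27.9% of all genes, with a median of -0.385. Without DKO1 replicate 4 the counts were 2 higher and 2 lower, beside 31.5% of all genes, with a median of 0.029.

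Among the long-chain acyl-CoA synthetases, which make the substrate of CPT1, 4 of 5 were tested. In ACLY KO against WT, 3 rose and 1 fell, and DKO1 against WT gave the same counts, so all 4 were called beside 48.5% and 56.0% of all genes. In ACSS2 KO 1 rose and 1 fell, beside 26.0%. In DKO1 against ACLY KO, Acsl4 (0.57, limma adjusted p = 0.00093), Acsl3 (0.40, adjusted p = 0.0010) and Acsl1 (0.47, adjusted p = 0.014) were higher and Acsl5 was at -0.06 (adjusted p = 0.45). The median difference over the 4 was 0.44 in that comparison, where 27.9% of all genes were called. Without DKO1 replicate 4 it was 0.58, again with 3 higher, beside 31.5% of all genes.

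Of 15 genes of mitochondrial beta-oxidation downstream of the shuttle, 6 rose and 3 fell in ACLY KO against WT, 0 rose and 1 fell in ACSS2 KO and 7 rose and 2 fell in DKO1 by limma. The shares of all genes called were 48.5%, 26.0% and 56.0% in turn. Medians were 0.29, 0.16 and 0.27. Without DKO1 replicate 4, 6 rose and 2 fell in ACSS2 KO, beside 40.2% of all genes called in that fit. In DKO1 6 rose and 2 fell there with a median of 0.15, beside 61.3% of all genes. Between DKO1 and ACLY KO 3 were higher, with Acadm, the medium-chain acyl-CoA dehydrogenase, at 0.55 (adjusted p = 0.0029) beside Eci2 at 0.76 (adjusted p = 0.00060) and Decr1 at 0.74 (adjusted p = 0.00067). Hadh was at 0.18 (adjusted p = 0.088). The 3 of 15 compare with 27.9% of all genes, with a median of 0.14. Without DKO1 replicate 4 the counts were 3 higher and 1 lower, beside 31.5% of all genes, with a median of -0.0205. In ACLY KO against WT, Eci2 (-0.45, adjusted p = 0.0058) and Decr1 (-0.42, adjusted p = 0.0078) fell and Acadm rose (0.59, adjusted p = 0.00034). In DKO1 against WT, Eci2 and Decr1 were each at 0.32, and both calls were lost without DKO1 replicate 4 (0.16 and 0.15).

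Of the genes of peroxisomal chain shortening, which makes acyl-CoA for CROT and CRAT, 11 of 15 were tested, and Acot4 was listed at 0 in all libraries. In ACLY KO against WT 6 rose and 1 fell, in ACSS2 KO 4 rose and 0 fell, and in DKO1 7 rose and 0 fell by limma. These counts stand beside 48.5%, 26.0% and 56.0% of all genes. The medians were 0.28, 0.21 and 0.66, the last 0.35 without DKO1 replicate 4. Scp2, a carrier and thiolase gene, rose from ACLY KO to DKO1 (0.48, adjusted p = 0.016). Ech1 (0.43, adjusted p = 0.061) and Acox3 (0.40, adjusted p = 0.071) did not pass. That comparison called 1 of 11, beside 27.9% of all genes. Without DKO1 replicate 4 it called 3, beside 31.5% of all genes, and Acox3 was at 0.61 (adjusted p = 0.0015).

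Of 8 regulators of fatty acid oxidation genes, 2 rose and 3 fell in ACLY KO, 2 rose and 2 fell in ACSS2 KO and 3 rose and 3 fell in DKO1 against WT by limma, with median log2 differences of -0.20, 0.21 and -0.15, beside 48.5%, 26.0% and 56.0% of all genes called. The DKO1 median was 0.057 without DKO1 replicate 4, with the same counts beside 61.3% of all genes. In DKO1 against ACLY KO, Ppara, the receptor that induces Cpt1a and other oxidation genes in liver, was higher (1.37, adjusted p = 0.0043), from 19.3 to 54.1 normalized counts on average. The coactivator genes Ppargc1a (-0.59, adjusted p = 0.0086) and Ppargc1b (-0.52, adjusted p = 0.025) and Esrra (-0.29, adjusted p = 0.042) were lower. These 4 of 8 calls stand beside 27.9% of all genes, and Cpt1a stood at -0.37 there and did not pass.

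Over the 14 libraries, which fall into 4 genotypes, the genes whose log2 values most resembled those of Crat (11021 genes compared, with a mean of 50 or more) were Tbc1d20 (Pearson's r of 0.969), Ammecr1 (0.963), Icmt (0.96), Usp33 (0.958) and Phka1 (0.956). For Slc25a20 they were Smyd3 (0.936), Fbxo2 (0.933), Dap (0.929), Pard6a (0.92) and Pdhb (0.91). The points share the genotypes and the library trends given above, so these values are a description only.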

How the data were processed

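The authors made stranded poly(A) libraries, sequenced 75-base single-end reads and aligned them to GRCm38. Per the labels, GRCm38/mm10 and DESeq2 (software version 1.0.1) were used. Gene assignment and its annotation were not given in the sources used here. The deposited values are a signal per gene, namely counts scaled by the DESeq normalization of the authors. They were not whole reads (33.4 to 73.7% of low values lay on whole multiples, tolerance 0.01), so no count test and no counting interval was used. Of the symbols listed, 26 appeared as dates and were left out.

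Values were tested as log2(value + 1) with limma 3.58.1 (intensity trend, R 4.3.3) for the 12693 genes with a mean of at least 10, with 1 coefficient per genotype, a shared spread over the 14 libraries and Benjamini-Hochberg adjustment over all genes tested. A gene was called at an adjusted p under 0.05. The procedure was tested on simulated data. The ratio of Cpt2 to Cpt1a in DKO1 against ACLY KO was tested by exact permutation, two-sided (scipy 1.17.1). The other ratio comparisons are given without a test. Gene positions and transcript lengths came from GENCODE on GRCm38, and promoter sequences from RefSeq, for 7 of the 9 members. The genes named are all members, up to 4 genes of each pathway list with the smallest adjusted p in DKO1 against ACLY KO, those at 0 in all libraries, and the 5 nearest patterns of Crat and Slc25a20. Bbox1, Acaca and the neighboring genes named were chosen after their values were seen. A gene of the peroxisomal list is not reported here by name. The members and lists were chosen with earlier results of these data known. Alternatives covered the added constant (0.5 and 5), no filter, a block for the replicate number, leaving out each library, the 2 groups alone, equal library totals, quantile normalization and a length correction (natural spline, 5 degrees of freedom per library). The comparison of ACLY KO with ACSS2 KO, a fit without WT replicate 2 and DKO1 replicate 4, and the list counts without DKO1 replicate 4 were added after seeing the data.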

Additional observations from a re-analysis of the deposited data

Results flagged for a closer look

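Crat in WT was flagged because 1 library stood apart. WT replicate 2 had 982 normalized counts and the other WT libraries 1188 to 1200.0, and its gap to the nearest library was 0.944 of the whole range, above the limit of 0.829 for 4 libraries. Such a test was made in 18 groups of 4 libraries, and chance flags about 1 in 20.

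The effect of ACSS2 loss differed between ACLY KO and WT cells for 3 of the 9 members by the interaction test of limma, beside 27.1% of all genes tested. The difference of the effects, in log2 units, was 5.82 for Cpt1c (95% interval 5.00 to 6.64, adjusted p = 2.9e-07), -0.55 for Aldh9a1 (95% interval -0.73 to -0.38, adjusted p = 0.00029) and -0.32 for Crot (95% interval -0.53 to -0.10, adjusted p = 0.032). The Crot call was lost in 8 of the 14 fits that left out 1 library.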

How the results depend on the processing

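The replicate numbers of the labels did not pair the libraries. Of 18 same-number pairs, 5 had a correlation of deviations above 0.1 (range -0.43 to 0.45), and 6 of 14 libraries correlated best with their own number. With the replicate number as a block, members called in DKO1 against the other genotypes fell from 4 to 1 and all genes called from 2635 to 1117. Equal library totals gave 2 members there, beside 2428 of 12696 genes tested. Leaving out both WT replicate 2 and DKO1 replicate 4 also gave 2, beside 1462 of 12667. With 1 library left out, 1 to 4 members were called, beside 1200 to 3047 genes. In DKO1 against ACLY KO, 3 members, beside 3545 of 12693 genes, became 1, beside 2168, in a fit of those groups only. They became 5 with the length correction, beside 4948 of 12577, and 5 without both libraries, beside 5503 of 12667. With 1 left out they were 2 to 5, beside 2744 to 4059 genes. For the interaction, 3 members, beside 3435 of 12693 genes, became 5 with the length correction, beside 4949 of 12577. They became 6 without both libraries, beside 5603 of 12667, and 2 to 5 with 1 left out, beside 2625 to 4258 genes. The cause was not tested.

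Values near 0 changed sign. With the block, Cpt1a became 0.047 in ACSS2 KO against WT, Cpt1c -0.020 in DKO1 against WT and Crot -0.00925 in DKO1 against ACLY KO. With equal library totals, Slc22a5 became 0.099 in ACLY KO, Crat 0.064 and Cpt1a 0.10 in ACSS2 KO and Aldh9a1 0.060 in DKO1, each against WT, and Crot -0.035 in DKO1 against ACLY KO. With quantile normalization, Cpt1a became 0.037 and Cpt1b -0.10 in ACSS2 KO, Cpt1c -0.16 and Aldh9a1 0.022 in DKO1, and the Cpt2 interaction 0.012. With the length correction, Slc22a5 became 0.0005611 in ACLY KO, Aldh9a1 0.016 in DKO1, and Slc25a20 -0.13 in DKO1 against ACSS2 KO and -0.069 against the other genotypes. Without both libraries these Slc25a20 values were -0.026 and -0.001722, and Slc22a5 was 0.047 in ACLY KO. With 1 library left out, against WT, Slc22a5 ran from -0.044 to 0.050 in ACLY KO, Cpt1a from -0.10 to 0.046 and Cpt1b from -0.012 to 0.23 in ACSS2 KO, and Cpt1c from -0.18 to 0.15 and Aldh9a1 from -0.046 to 0.026 in DKO1. Against ACLY KO in DKO1, Crot ran from -0.045 to 0.069 and Slc25a20 from -0.11 to 0.034, and against ACSS2 KO Slc25a20 ran from -0.026 to 0.11. The difference in the ratio of Crat to Cpt2 between ACLY-deficient and ACLY-proficient libraries ran from -0.30 to -0.20 and kept its sign.

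Equal library totals moved the median of all genes to 0.10 in ACLY KO against WT, with higher calls going from 49.1 to 61.9%. In ACSS2 KO the median became 0.11 (57.8 to 75.8% higher), and for the interaction -0.16 (44.3 to 28.1% higher). Genes called moved by over 1.5 times in ACSS2 KO against WT (3306, to 5119 with the length correction, 5088 without DKO1 replicate 4 and 6088 without both libraries), in DKO1 against ACLY KO (3545, to 2168 in a fit of those groups only and 5503 without both), for the interaction (3435, to 5603 without both) and in DKO1 against the other genotypes (1533 without DKO1 replicate 3, 1200 without replicate 4 and 1462 without both). The values are normalized and keep no exact depth, so low genes such as Cpt1b and Cpt1c were limited by the spread between libraries.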
